A study of Mus musculus with 10 samples.

Results

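Mitochondrially encoded transcripts were measured in RNA from mouse ileal crypts, the epithelial pits of the ileum in which stem cells and Paneth cells sit. Members were the genes whose mouse symbol starts with mt-. The deposited values hold 13 of them among 28987 genes, and these 13 are the protein-coding genes of the mitochondrial genome. The GENCODE M21 annotation of GRCm38 (mm10) lists 37 mt- genes, and the deposited values hold none of its 2 rRNA genes and 22 tRNA genes. Shares given below are therefore of totals without them. All 13 members passed the filter on low values used for the tests.

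The study compared crypts of mice with raised, deleted and intact STAT5, a transcription factor that acts downstream of cytokine and hormone receptors, in 10 single-end libraries of total RNA. The OE group, labelled STAT5IEC+++, has 5 libraries of VilCreER;icS5 mice, and the labels do not spell out the allele icS5. The KO group, labelled STAT5IEC-/-, has 2 libraries of VilCreER;Stat5 mice. The Ctrl group, labelled STAT5+/+, has 3 libraries of VilCreER;Stat5 mice. VilCreER, an inducible Cre recombinase under the villin promoter of intestinal epithelium, is named for all 3 groups. How and when it was induced is not given in the sources used here, and no control of the icS5 line was analysed here. The labels give all mice as C57Bl6, male and 12 weeks old. Nothing ties each library to an animal of its own, so a p-value here reflects spread between these samples that may be technical.

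The mammalian mitochondrial genome encodes core membrane subunits of the respiratory chain, which passes electrons from NADH to oxygen, and of the ATP synthase. Both of its strands are transcribed into long precursors that are cut into individual RNAs, largely at the tRNAs between the genes. In mammals Atp8 and Atp6 remain on a shared mRNA, as do Nd4l and Nd4.

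The results turn on 2 short members, whose GRCm38 sequences are printed here from the GENCODE M21 transcripts, 5′ to 3′. mt-Atp8 is shown because it had the highest mean level, and its capitals mark the 43 bases that it shares with mt-Atp6. mt-Nd4l is shown because a nuclear pseudogene repeats it, and its capitals mark the 294 bases identical to that pseudogene, Gm10222.
mt-Atp8: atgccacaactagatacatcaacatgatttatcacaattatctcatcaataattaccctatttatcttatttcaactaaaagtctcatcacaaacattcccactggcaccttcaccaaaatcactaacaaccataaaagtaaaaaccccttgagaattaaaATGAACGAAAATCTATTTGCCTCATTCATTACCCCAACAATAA
mt-Nd4l: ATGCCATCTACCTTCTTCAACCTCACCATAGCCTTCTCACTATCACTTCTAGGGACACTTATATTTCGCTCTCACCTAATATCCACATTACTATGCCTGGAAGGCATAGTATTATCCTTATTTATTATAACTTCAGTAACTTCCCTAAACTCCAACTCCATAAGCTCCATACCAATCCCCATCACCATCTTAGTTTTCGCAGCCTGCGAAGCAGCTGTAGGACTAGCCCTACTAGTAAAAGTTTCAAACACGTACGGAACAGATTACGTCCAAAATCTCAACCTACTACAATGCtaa
mt-Atp8 (chromosome M, 7766 to 7969, plus strand, 204 bases) is the shortest member, and its last 43 bases (7927 to 7969) are also the first bases of mt-Atp6 (7927 to 8607). mt-Nd4l (9877 to 10173, 297 bases) shares 7 bases with mt-Nd4 (10167 to 11544). mt-Nd5 (11742 to 13565) and mt-Nd6 (13552 to 14070) share 14 bases on opposite strands, and mt-Nd6 is the one member annotated on the minus strand, against 12 on the plus strand. Use of strand in counting, and the assignment of reads in shared bases, were not given in the sources used here. Gm10222 lies on chromosome 1 (24612407 to 24612700), and its deposited TPM equalled that of mt-Nd4l in all 10 libraries, so mt-Nd4l is uncertain. In all, 8 members had a nuclear transcript of at least 95% identity over at least 50% of their length. Of the 9 such nuclear genes, 3 are listed in the files, and the other two besides Gm10222 averaged 4.43 TPM (Gm13340, a copy of mt-Co1) and 3.89 TPM (Gm13341, a copy of mt-Co2). Levels of the members with such copies are uncertain to the extent that the authors' counting split reads. For mt-Atp8 the only nuclear match, in Gm10925, covered 43 of its 204 bases. The search covered annotated transcripts only, so it cannot show that mt-Atp8 or another member lacks a nuclear copy outside them.

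Levels are given as TPM, the share of a library's transcripts after correction for gene length, scaled to a fixed total. Sequencing depth cannot be recovered from TPM, so no counting error is attached to them. Scaled TPM are deposited TPM divided by a median-ratio factor per library, taken over the 11146 genes above 0 in every library. Ctrl 2 stood apart from the other libraries. Its factor was 0.300, against 0.846 to 1.33 elsewhere, and 8263 genes reached 1 TPM in it, against 11050 to 11932. The summed level of 7 Paneth cell markers was 124 deposited TPM in Ctrl 2, with Defa30 listed at 0, and 4475 to 21330 elsewhere. After scaling, this sum was 414 TPM in Ctrl 2 and 3635 to 18750 elsewhere. Stat5a was at 0.626 and 0.330 scaled TPM in KO, below the 1.05 to 2.55 of Ctrl, and Stat5b at 0.474 and 0.422, below 0.953 to 1.73, whereas as deposited KO 1 lay above Ctrl 2 for both. OE 1 lay inside the Ctrl range for both genes, at 1.53 and 1.46 scaled TPM, while OE 2, OE 3, OE 4 and OE 5 exceeded all Ctrl libraries for Stat5b and 3 of these 4 did for Stat5a. The deposited TPM of 4 Y-linked genes summed to 0.25 in OE 3, 0.140 in OE 4 and 3.45 in Ctrl 3, and to 32.3 to 131 elsewhere, against the label male. Values without some of these libraries stand beside several of the main results that they touch, and not beside all. In bulk samples, fewer cells of a type and less RNA per cell cannot be told apart.

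The 13 members held a large share of each library, and mt-Atp8 held the largest part of it in 9 of 10 libraries. Their summed share of deposited TPM was 56.97%, 43.3%, 54.8%, 54.6% and 46.2% in OE, 49.7% and 53.8% in KO, and 50.3%, 83.7% and 45.1% in Ctrl. The 3 groups overlapped, and Ctrl 2 was the highest library of the series. mt-Atp8, a small membrane subunit of the ATP synthase, took 16.9%, 21.3%, 38.2%, 36.6% and 20.3% in OE, 22.5% and 37.7% in KO, and 28.0%, 55.2% and 19.7% in Ctrl. Its share differed more than 3-fold between libraries, and each group held a low and a high library.

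mt-Atp8 averaged 26.6% ± 9.96 in OE, 30.1% ± 10.7 in KO and 34.3% ± 18.6 in Ctrl (SD, n = 5, 2 and 3). The difference was -7.65 percentage points for OE against Ctrl (exact two-sided permutation test, p = 0.464), -4.18 for KO against Ctrl (p = 0.9, exact) and -3.46 for OE against KO (p = 0.524, exact). The smallest p that these designs allow is 0.0179, 0.1 and 0.0476, and the 6 exact tests run on the mt-Atp8 share and its ratio to mt-Atp6 all had an adjusted p of 1. Without Ctrl 2 the share was 2.82 percentage points higher in OE than in Ctrl and 6.28 higher in KO than in Ctrl. It was 3.39 higher in KO than in Ctrl without KO 1, and 4.11 higher in OE than in KO without KO 2, so the direction of each of the 3 differences turned on the left-out library. The mt-Atp8 difference was -14.95 percentage points without Ctrl 3 for OE against Ctrl, -11.8 without KO 2 for KO against Ctrl and -11.04 without KO 1 for OE against KO. Without Ctrl 3, OE 3 and OE 4, the 3 libraries with low Y-linked levels, it was -22.1 for OE against Ctrl (exact permutation p = 0.1, the smallest that this design allows), -11.5 for KO against Ctrl and -10.6 for OE against KO (exact p = 0.1, again the smallest).

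**Figure D1:**
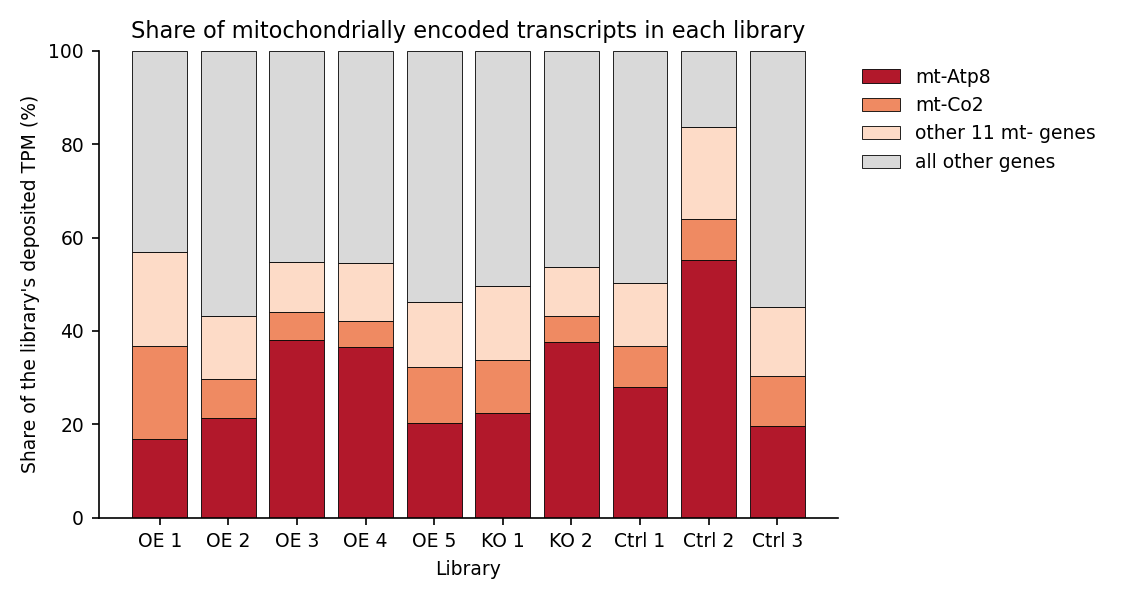
Stacked bars give the share of each library's deposited TPM (vertical axis, %) held by mt-Atp8, mt-Co2, the other 11 members and all other genes, for 5 OE, 2 KO and 3 Ctrl libraries. mt-Atp8 runs between 16.9% in OE 1 and 55.2% in Ctrl 2, and in OE 1 mt-Co2, at 19.9%, exceeds it.

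The other 12 members together varied less between groups than within OE. They took 40.1%, 21.97%, 16.6%, 18.0% and 25.9% in OE, 27.1% and 16.1% in KO, and 22.4%, 28.4% and 25.4% in Ctrl. OE 1 was highest and KO 2 lowest, and the ranges overlapped. Taken over the TPM without mt-Atp8, the 12 members held 48.2%, 27.9%, 26.9%, 28.4% and 32.5% in OE, 35.0% and 25.8% in KO, and 31.1%, 63.5% and 31.7% in Ctrl. On that scale Ctrl 2 stood above the other libraries, as it did for the summed share of all 13, and OE 1 came next.

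mt-Atp8 and mt-Co2 led the members and mt-Nd2 came last in most libraries, while several neighbours in between changed places. Over the 10 libraries mt-Atp8 averaged 291815 ± 120401 deposited TPM (SD, n = 10) and mt-Co2 95222 ± 42224, and mt-Atp8 exceeded mt-Co2 in 9 of 10. mt-Co2 exceeded mt-Atp6 in 10 of 10, while mt-Atp6 (35506 ± 6582) and mt-Nd3 (32561 ± 10491) changed places, with mt-Atp6 higher in 6 of 10. mt-Nd3 exceeded mt-Co1 in 10 of 10. mt-Co1 (13413 ± 4350), mt-Nd4l (13145 ± 5615) and mt-Co3 (12471 ± 3015) did not differ beyond their spread, with mt-Co1 above mt-Nd4l in 5 of 10 and mt-Nd4l above mt-Co3 in 4 of 10. mt-Co3 exceeded mt-Nd1 (11019 ± 3046) in 7 of 10, and mt-Nd1 exceeded mt-Nd4 (6204 ± 1666) in 10 of 10. Below these, mt-Nd6 (5579 ± 1353) and mt-Nd5 (5346 ± 1614) changed places, with mt-Nd6 higher in 5 of 10. mt-Cytb (4796 ± 1161) exceeded mt-Nd2 (2832 ± 702), the lowest member by mean, in 10 of 10.

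The shorter members had the higher TPM on the whole. Spearman's rho of mean deposited TPM with annotated length was -0.59 over the 13 members, and with GC content -0.11, as a description of 13 genes of the same libraries. TPM are already divided by a gene length, so length enters both sides of the first rho. That rho therefore cannot show whether reads per gene depend on length. TPM multiplied by annotated length give a share of bases only if the authors divided by that same length. The length that they used was not given in the sources used here, which limits the level of short members such as mt-Atp8. After this weighting mt-Co2 came first with a mean of 27.3% of the total over the 13 members and mt-Atp8 second with 25.9%. mt-Atp6 followed with 10.4% and mt-Co1 with 8.71%, and mt-Nd6 was lowest with 1.23%. On the weighted scale mt-Nd4l was at 1.64%, so its place among the middle members holds in TPM and not after weighting by length.

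**Figure D2:**
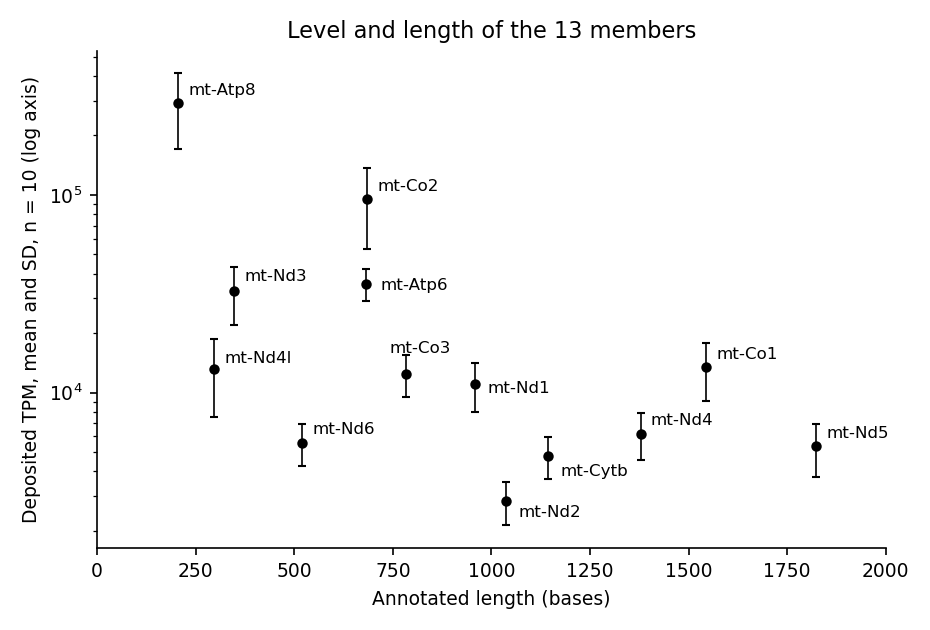
Mean deposited TPM of each member over the 10 libraries (log axis, bars show the SD) is plotted against its annotated length in bases. mt-Atp8, at 204 bases, is the shortest and highest member, and mt-Nd6, at 519 bases, lies below longer members such as mt-Co2 and mt-Co1.

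Members of complex I, the NADH dehydrogenase that feeds electrons into the chain, include 7 of the 13 genes and held 5.05% to 10.8% of deposited TPM in OE, 5.19% and 8.57% in KO and 7.35% to 10.7% in Ctrl. mt-Nd1, a membrane subunit next to the quinone site, was at 16703, 11386, 6824, 8004 and 12831 TPM in OE, 12566 and 7032 in KO, and 10620, 12464 and 11757 in Ctrl. The Ctrl libraries lay inside the OE range. mt-Nd2, a proton-pumping membrane subunit, was at 3252, 2539, 2489, 2923 and 2701 TPM in OE, 2690 and 1826 in KO, and 2408, 4501 and 2993 in Ctrl. KO 2 was lowest and Ctrl 2 highest, with the groups overlapping.

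mt-Nd3, a small subunit of the membrane arm, was at 54576, 33765, 16651, 22626 and 37768 deposited TPM in OE, 39131 and 24816 in KO, and 31245, 35723 and 29304 in Ctrl. OE spanned the other two groups. mt-Nd4l, counted with the same values as Gm10222, was at 13238, 13220, 8689, 13270 and 9346 TPM in OE, 13313 and 5272 in KO, and 11088, 25621 and 18391 in Ctrl. mt-Nd4, a proton-pumping subunit, was at 7113, 5285, 5288, 5854 and 4884 TPM in OE, 6394 and 4602 in KO, and 5969, 10439 and 6215 in Ctrl. Ctrl 2 was the highest library for mt-Nd4l and mt-Nd4, KO 2 was the lowest for both, and the groups overlapped.

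mt-Nd5, the largest proton-pumping subunit, was at 5082, 4527, 4763, 5588 and 3560 deposited TPM in OE, 5062 and 3695 in KO, and 5603, 9253 and 6331 in Ctrl. All OE and KO libraries lay below the 3 Ctrl libraries as deposited, though the gap between OE 4 and Ctrl 1 was small. mt-Nd6, the subunit read from the other strand, was at 6800, 4477, 5018, 6453 and 4860 TPM in OE, 4928 and 3830 in KO, and 5204, 8498 and 5715 in Ctrl. The KO libraries lay below Ctrl, and OE overlapped both.

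mt-Cytb, the cytochrome b of complex III, which carries electrons from quinol to cytochrome c, was at 6152, 4168, 3894, 4473 and 4539 deposited TPM in OE, 4856 and 3153 in KO, and 4268, 7185 and 5268 in Ctrl. The groups overlapped, and Ctrl 2 was highest.

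The 3 members of complex IV, the cytochrome c oxidase that reduces oxygen, held 7.87% to 23.5% of deposited TPM in OE, 7.5% and 14.2% in KO and 11.01% to 13.1% in Ctrl. mt-Co1, the catalytic subunit, was at 16773, 11149, 12878, 12316 and 11343 TPM in OE, 13664 and 7954 in KO, and 10698, 23941 and 13417 in Ctrl. Ctrl 2 was highest and KO 2 lowest, with the groups overlapping. mt-Co2, the subunit that takes up electrons from cytochrome c, was at 196278, 83122, 57451, 55095 and 117831 TPM in OE, 111015 and 54723 in KO, and 85876, 86417 and 104416 in Ctrl. OE held both the highest library and some of the lowest, and the Ctrl libraries lay close together. mt-Co3, a core subunit without a redox centre, was at 18496, 10434, 9731, 9903 and 12210 TPM in OE, 14248 and 11117 in KO, and 11550, 16607 and 10412 in Ctrl. OE 1 and Ctrl 2 were the highest libraries for mt-Co3.

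The 2 members of complex V, the ATP synthase, held 22.0% to 41.2% of deposited TPM in OE, 26.4% and 40.8% in KO and 23.3% to 59.5% in Ctrl, the larger part of it mt-Atp8 in each library. mt-Atp6, the subunit that forms the proton path, was at 50470, 31197, 29724, 30128 and 32727 TPM in OE, 38273 and 30452 in KO, and 34996, 42112 and 34981 in Ctrl. OE 1 was the highest library and the other OE libraries lay below Ctrl. mt-Atp8 was at 166179, 208729, 375638, 359847 and 199137 TPM in OE, 221129 and 370913 in KO, and 274658, 549091 and 192831 in Ctrl. OE 3, OE 4, KO 2 and Ctrl 2 were the high libraries for mt-Atp8, and except for Ctrl 2 none of these was high for mt-Atp6.

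**Figure D3:**
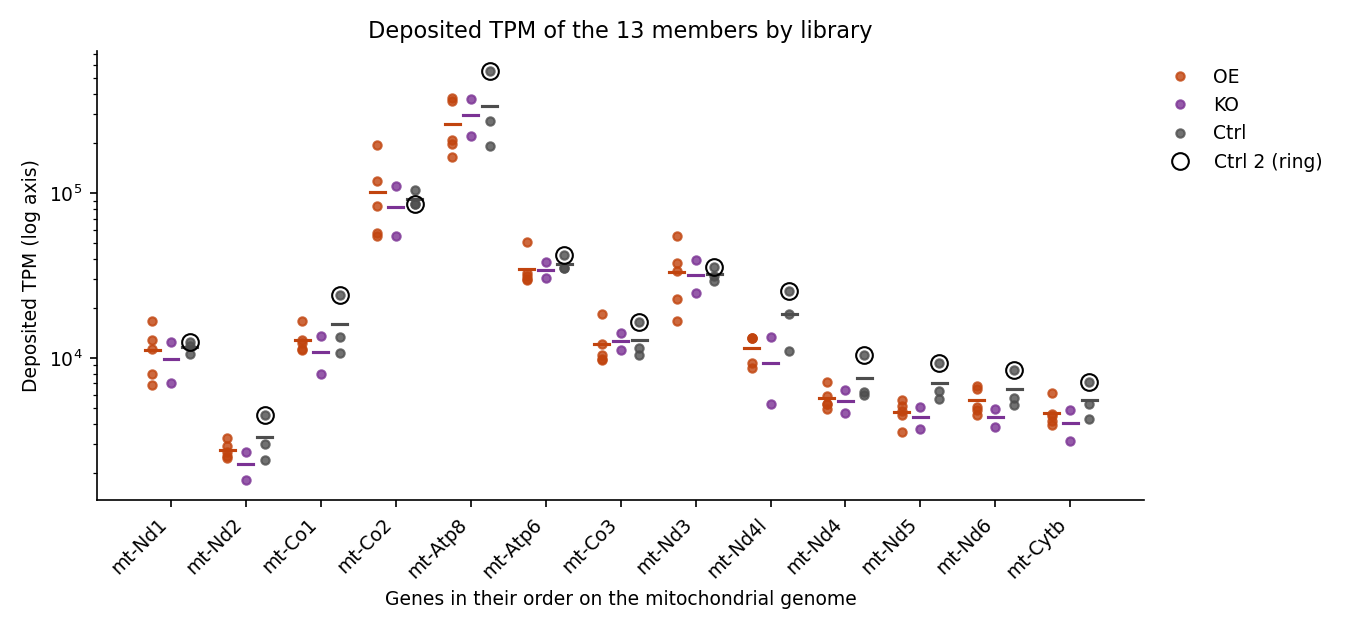
Each point is the deposited TPM of a member (log axis) in a library of OE (left of each trio), KO (middle) or Ctrl (right), the lines are group means, and Ctrl 2 is ringed. Ctrl 2 is the highest Ctrl library for 12 of the 13 members, the exception being mt-Co2, and the groups overlap for most members.

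No member passed the test in any comparison, and the position of the whole set against Ctrl turned on Ctrl 2. For OE against Ctrl, limma on log2(scaled TPM + 1) called 0 of 13056 genes at an adjusted p under 0.05 (0%), and 797 genes and 0 members had an unadjusted p under 0.05. All 13 members had an estimate below 0, between -1.13 (mt-Nd4l, 95% interval -2.79 to 0.54, limma adjusted p = 0.759) and -0.54 (mt-Co2), with a median of -0.73 against 0.02 over all genes. Without Ctrl 2, 11 estimates were above 0 and 2 below, with a median of 0.14 against -0.01 over all genes. The median was -1.23 without Ctrl 1, -1.16 without Ctrl 3, -0.91 without OE 1 and -1.05 without Ctrl 3, OE 3 and OE 4. All 13 were below 0 each time. Without Ctrl 1, 1 member, mt-Nd5, reached an unadjusted p of 0.0498 in limma (adjusted p = 0.565). On deposited TPM without scaling, where the median of all genes was 0.36, the member median was -0.22.

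mt-Atp8 shows how Ctrl 2 weighs in that comparison. Its scaled TPM averaged 228267 ± 72995 in OE, against 732319 ± 952051 with a median of 221010 in Ctrl (SD, n = 5 and 3). Its log2 difference was -0.83 (95% interval -3.85 to 2.20, limma adjusted p = 0.885) with all libraries and 0.29 (-1.65 to 2.23, adjusted p = 0.999) without Ctrl 2. mt-Nd5, the member with the smallest p, averaged 4232 ± 1146 scaled TPM in OE, against 13376 ± 15136 in Ctrl. Its log2 difference was -1.08 (95% interval -2.49 to 0.32, limma adjusted p = 0.756), which was -0.17 without Ctrl 2. mt-Nd5 and mt-Nd4l were the 2 members still below 0 in OE without Ctrl 2.

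In KO against Ctrl, limma likewise called 0 of 13056 genes (0%), with 450 genes and 0 members at an unadjusted p under 0.05. The 13 members again all had estimates below 0, between -1.59 (mt-Nd4l, -3.66 to 0.49, limma adjusted p = 0.943) and -0.54 (mt-Co3), with a median of -0.96 against 0.04 over all genes. Without Ctrl 2, 9 were below 0 and 4 above, with a median of -0.08. Without Ctrl 3, OE 3 and OE 4 all 13 were below 0, with a median of -1.41. The 4 above 0 without Ctrl 2 were mt-Atp8 (0.48), mt-Co3 (0.36), mt-Nd3 (0.21) and mt-Atp6 (0.13), and mt-Nd4l remained the lowest at -0.60. Without Ctrl 1, mt-Nd4l alone among the members had an unadjusted p under 0.05, at 0.0411 in limma (adjusted p = 0.639). The member median on deposited TPM was -0.43, with all genes at 0.38. This comparison and that of OE against Ctrl share their Ctrl libraries, Ctrl 2 included.

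In OE against KO, limma called 0 of 13056 genes (0%), and 385 genes and 0 members had an unadjusted p under 0.05. Of the 13 members 10 had an estimate above 0 and 3 below, between -0.19 (mt-Atp8) and 0.46 (mt-Nd4l, 95% interval -1.44 to 2.36, limma adjusted p = 1), with a median of 0.19. Without OE 1 the median was -0.08 and without KO 2 -0.04, with 8 of 13 below 0 in each case. It was 0.43 without KO 1, 0.33 without OE 3, and 0.39 without Ctrl 3, OE 3 and OE 4.

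**Figure D4:**
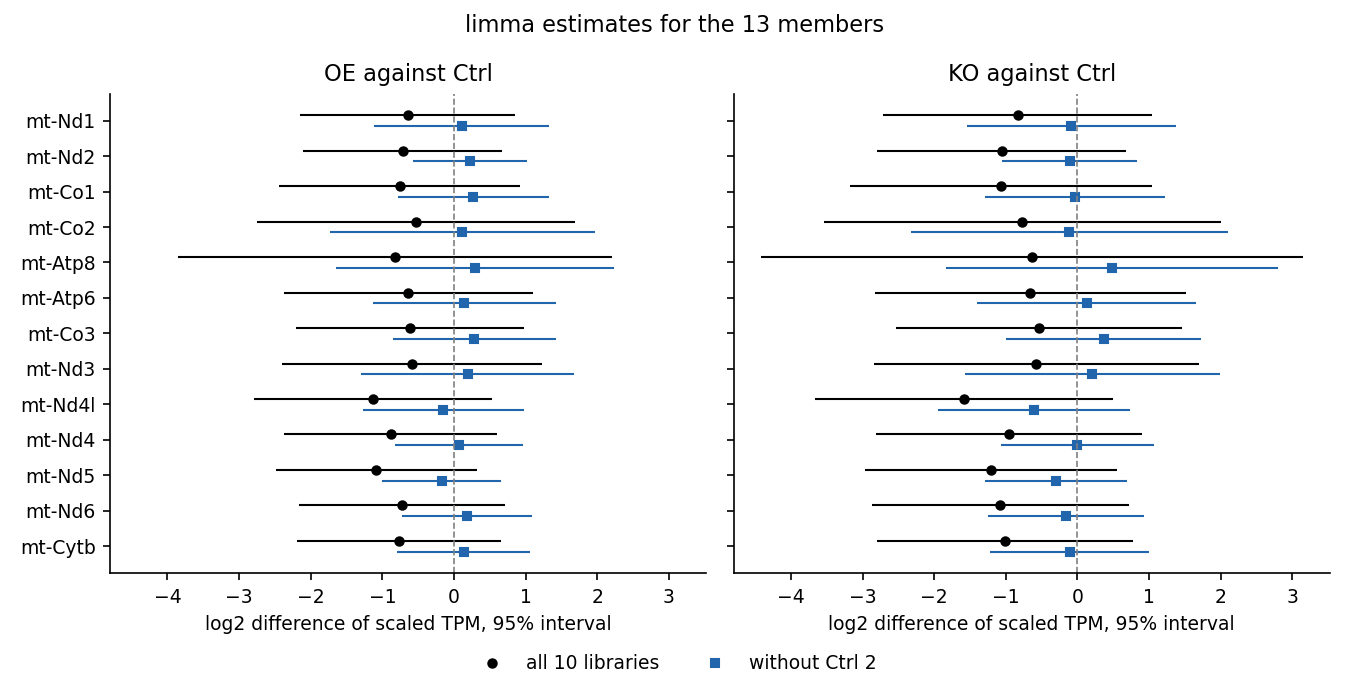
limma log2 differences of scaled TPM with their 95% intervals for the 13 members, OE against Ctrl and KO against Ctrl, are shown with all 10 libraries (circles) and without Ctrl 2 (squares). All intervals cross 0, the circles lie between -1.59 and -0.54, and the squares lie between -0.60 and 0.48.

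A count of members whose groups do not overlap gave few cases. Of scaled values, OE lay wholly above Ctrl for 2.21% of the 13056 genes and wholly below for 1.52%, and 0 of the 13 members did either. As deposited the shares were 1.78% above and 0.237% below, and mt-Nd5 was the 1 member below. Of scaled values, KO lay wholly above Ctrl for 9.09% of genes and wholly below for 7.27%, with 0 and 2 members. The 2 were mt-Nd5, at 3461 and 4112 scaled TPM in KO and 4509 to 30852 in Ctrl, and mt-Nd6, at 3588 and 4003 in KO and 4187 to 28336 in Ctrl. As deposited, KO lay above Ctrl for 8.44% of genes and below for 1.47%, with 0 members above and the same 2 members below. OE lay wholly above KO for 4.04% of genes and below for 4.43% in scaled values, and for 3.09% and 3.63% as deposited, with 0 members in each.

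Marker lists of other cells were read beside these comparisons. The 6 smooth muscle markers summed to at most 3.30 deposited TPM in OE, 2.83 in KO and 3.69 in Ctrl, with Myh11 listed at 0 in 9 of 10 libraries, and 4 endothelial markers to at most 4.82 in OE, 2.40 in KO and 7.57 in Ctrl, with Cdh5 at 0 in 9 of 10. The 5 fibroblast markers summed to 2.65 to 65.01 TPM in OE, 16.9 and 71.2 in KO and 4.37 to 10.8 in Ctrl, with none listed at 0. The 6 leukocyte markers summed to 28.5 to 176 TPM in OE, 25.9 and 60.7 in KO and 4.72 to 43.8 in Ctrl, with Ptprc at 0 in OE 1, OE 2, KO 1 and Ctrl 2, and Cd79a and Cd52 at 0 in Ctrl 2 and Ctrl 3. The 5 erythroid markers summed to 20.05 to 168 TPM in OE, 44.7 and 59.3 in KO and 3.77 to 48.8 in Ctrl. In OE against Ctrl the 5 leukocyte markers tested all had estimates above 0, with a median of 1.68. The 3 erythroid markers tested did so too, with a median of 1.31. In KO against Ctrl the 5 fibroblast markers all had estimates above 0, with a median of 1.54. Without Ctrl 2, 4 of the 5 leukocyte markers, all 3 erythroid markers and all 5 fibroblast markers were above 0 in these comparisons. Their medians were then 1.67, 1.61 and 1.86, and 0 of these genes were called. With all libraries, 4 of 5 fibroblast markers were above 0 in OE against Ctrl, with a median of 0.58. In KO against Ctrl, 4 of 5 leukocyte markers (median 0.65) and 2 of 3 erythroid markers (median 1.00) were above 0. Of 5 stem cell markers, 4 were above 0 in OE against Ctrl and 4 in KO against Ctrl. Of 6 goblet cell markers 4 and 2 were, and of 6 general epithelial markers 5 and 3. In both comparisons with Ctrl the 8 enterocyte markers all had estimates below 0, as the 13 members did, with medians of -0.77 for OE and -1.32 for KO, and the 7 Paneth cell markers all had estimates above 0, with medians of 1.69 and 0.81. The scaled sum of the enterocyte markers was 697 to 7556 TPM in OE, 1258 and 1915 in KO, and 2966, 13530 and 1292 in Ctrl. Ctrl 2 was the highest library in this sum, as it was in the summed share of the members. Without Ctrl 2 the enterocyte medians were 0.36 for OE and -0.26 for KO, and the Paneth cell medians 0.34 and -0.45. Before scaling, the 8 enterocyte markers summed to 841 to 6396 deposited TPM in OE, 1548 and 2044 in KO and 1716 to 4058 in Ctrl, and 6 goblet cell markers to 1465 to 4618 in OE, 2054 and 2904 in KO and 499 to 6026 in Ctrl. The 5 stem cell markers summed to 80.5 to 620 TPM in OE, 236 and 251 in KO and 21.2 to 478 in Ctrl. The 6 general epithelial markers summed to 4334 to 5979 TPM in OE, 4726 and 6120 in KO and 952 to 6661 in Ctrl, where Ctrl 2 was lowest. After scaling, the epithelial sums were 3634 to 5851 TPM in OE, 4428 and 4971 in KO and 3173 to 5014 in Ctrl, with 3173 in Ctrl 2. The scaled goblet cell sum of Ctrl 2, at 1663, lay above the 1101 of OE 2. Its scaled stem cell sum was 70.8, against 95.1 in OE 1. The part of these cells in the members' values was not tested.

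Ratios between members of the same library do not depend on how libraries are scaled. mt-Atp8 exceeded mt-Atp6, with which it shares an mRNA, 3.29, 6.69, 12.6, 11.9 and 6.08-fold in OE, 5.78 and 12.2-fold in KO, and 7.85, 13.04 and 5.51-fold in Ctrl. The length that the authors divided by and the assignment of the 43 shared bases both enter this ratio of deposited TPM. Neither was given in the sources used here, so the ratio cannot show an excess of mt-Atp8 RNA over mt-Atp6 RNA. The ratio was high in the libraries with a high mt-Atp8 share, and each group held a low and a high library. Its mean log2 was 2.86 ± 0.80 in OE, 3.07 ± 0.76 in KO and 3.05 ± 0.62 in Ctrl (SD, n = 5, 2 and 3). The log2 ratio differed by -0.19 for OE against Ctrl (exact permutation p = 0.75), 0.02 for KO against Ctrl (p = 1, exact) and -0.21 for OE against KO (p = 0.952, exact). The first was 0.10 without OE 1, 0.14 without Ctrl 2 and -0.48 without Ctrl 3. The second was -0.52 without KO 2, -0.27 without Ctrl 3, -0.02 without Ctrl 1 and 0.56 without KO 1. The third was 0.08 without OE 1, 0.33 without KO 2 and -0.75 without KO 1. Without Ctrl 3, OE 3 and OE 4 the 3 differences were -0.98 (exact p = 0.1, the smallest that this design allows), -0.27 and -0.71.

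The other mRNA shared by a pair of members behaved less widely. mt-Nd4l exceeded mt-Nd4 1.86, 2.50, 1.64, 2.27 and 1.91-fold in OE, 2.08 and 1.15-fold in KO, and 1.86, 2.45 and 2.96-fold in Ctrl. KO 2 was lowest. mt-Nd4l carries the uncertainty of Gm10222, and the length used enters this ratio too. Within complex IV, mt-Co2 exceeded mt-Co1 11.7, 7.46, 4.46, 4.47 and 10.4-fold in OE, 8.12 and 6.88-fold in KO, and 8.03, 3.61 and 7.78-fold in Ctrl. The libraries with the lowest mt-Co2 to mt-Co1 ratio, Ctrl 2, OE 3 and OE 4, were among those with the highest mt-Atp8 to mt-Atp6 ratio.

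**Figure D5:**
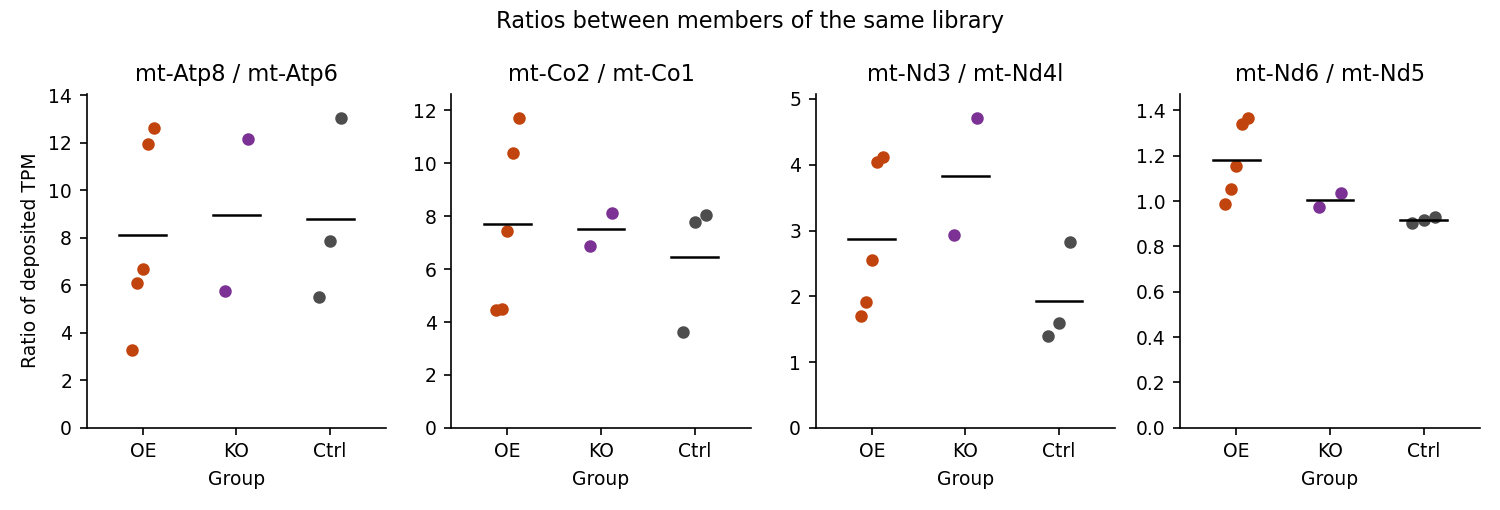
Ratios of deposited TPM between members of the same library are shown per library (points) with group means (lines) for OE, KO and Ctrl, each axis starting at 0. The mt-Atp8 to mt-Atp6 ratio spans 3.29 to 13.04 across overlapping groups, and the mt-Nd6 to mt-Nd5 ratio lies at 0.989 or above in OE, at 0.973 and 1.04 in KO and at or below 0.929 in Ctrl.

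Of the 78 ratios that 13 members form, 2 did not overlap between OE and Ctrl (2.56%), 23 between KO and Ctrl (29.5%) and 4 between OE and KO (5.13%). Over all pairs of the 11146 genes above 0 in every library, the shares of ratios that did not overlap were 3.59%, 16.7% and 9.03% in the same comparisons. The member ratios share members and libraries, so their counts are a description, and those against Ctrl for OE and those between OE and KO were below the shares over all pairs. The mt-Nd6 to mt-Nd5 ratio, singled out after its values were seen, sets the minus-strand gene against its plus-strand neighbour. It was 1.34, 0.989, 1.05, 1.15 and 1.37 in OE, 0.973 and 1.04 in KO, and 0.929, 0.918 and 0.903 in Ctrl. Every OE and KO library lay above every Ctrl library, Ctrl 2 included, while OE and KO overlapped. The log2 difference was 0.35 for OE against Ctrl (exact two-sided permutation p = 0.0357, adjusted p = 0.9 over 234 exact tests, higher in 5 of 5 libraries). It was 0.13 for KO against Ctrl (exact p = 0.1, the smallest that this design allows, adjusted p = 0.9) and 0.22 for OE against KO (exact p = 0.19, adjusted p = 0.9). No ratio passed after adjustment. The other ratio that did not overlap between OE and Ctrl was mt-Nd2 to mt-Nd5, at 0.523 to 0.759 in OE and 0.430 to 0.486 in Ctrl.

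mt-Nd5 was part of 8 of the 23 ratios that did not overlap between KO and Ctrl, mt-Nd3 of 7 and mt-Co3 of 6, and mt-Atp8 of 0. mt-Co3 to mt-Nd5 was 2.81 and 3.01 in KO, against 1.64 to 2.06 in Ctrl, which is 0.67 on the log2 scale (exact p = 0.1, adjusted p = 0.9). The tightest ratio over the 10 libraries was that of mt-Nd2 to mt-Cytb, with an SD of 0.098 on the log2 scale, and mt-Nd2 to mt-Nd6 (0.12) and mt-Atp6 to mt-Co3 (0.12) followed. The widest was mt-Co2 to mt-Atp8, with an SD of 1.05, and mt-Atp8 was part of each of the 4 widest ratios.

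The level of mt-Atp8 was set against that of each other member over the 10 libraries, as deposited and over the TPM without mt-Atp8, which made 24 relations. As deposited, mt-Co2 had a Pearson's r of -0.72 with mt-Atp8 (permutation p = 0.0175, adjusted p = 0.123) and a Spearman's rho of -0.68 (permutation p = 0.0338, adjusted p = 0.582). Without the 2 libraries farthest from the median of mt-Atp8, OE 3 and Ctrl 2, r was -0.91. Deposited TPM share a total, so these values are not independent, and the part of this in r was not tested. As deposited, r was above 0 for mt-Nd5 (0.42), mt-Nd4 (0.31), mt-Nd6 (0.26), mt-Co1 (0.19), mt-Nd2 (0.15) and mt-Nd4l (0.02), and below 0 for the others. Over the TPM without mt-Atp8, r of mt-Co2 was -0.32 (permutation p = 0.357, adjusted p = 0.613) and its rho was -0.43 (permutation p = 0.216, adjusted p = 0.716). Without OE 3 and Ctrl 2, r of mt-Co2 on that scale was -0.84. mt-Nd1 gave an r of -0.60 as deposited (permutation p = 0.0664, adjusted p = 0.227), a rho of -0.65 (permutation p = 0.0485, adjusted p = 0.582) and an r of -0.95 without the 2 libraries. Over the TPM without mt-Atp8, mt-Nd1 had an r of 0.03 (permutation p = 0.945) and a rho of -0.30 (permutation p = 0.406). Without the 2 libraries its r on that scale was -0.88. mt-Nd5 over the TPM without mt-Atp8 had an r of 0.73 (permutation p = 0.0116, adjusted p = 0.123) and a rho of 0.44 (permutation p = 0.201, adjusted p = 0.716), and its r of 0.38 without the 2 libraries shows that it rests on them. On that scale r was 0.70 for mt-Nd4, 0.68 for mt-Nd6 and 0.63 for mt-Nd2 (permutation p = 0.0173, 0.0205 and 0.0414). Their r without the 2 libraries was 0.29, 0.25 and -0.03. Only mt-Co2 and mt-Nd3 (-0.02) had an r below 0 on that scale with all libraries. None of the 24 passed after adjustment.

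Nuclear genes of the same complexes had median estimates nearer to 0 than the members in both comparisons with Ctrl when all libraries were used, and this rested on Ctrl 2. Lists chosen with earlier results of these data known were read in the same limma fit, in which 0 of their genes were called. Of 36 nuclear complex I subunits, 27 had an estimate above 0 and 9 below in OE against Ctrl, with a median of 0.13, and 16 above and 20 below in KO against Ctrl, with a median of -0.02. In OE against KO 27 were above 0, with a median of 0.29. Ndufb5, a complex I subunit, averaged 292 ± 92.9 scaled TPM in OE, 294 ± 32.4 in KO and 286 ± 34.8 in Ctrl (SD, n = 5, 2 and 3, as for the genes that follow). The 3 groups of Ndufb5 were close. Those of Ndufab1, another complex I subunit, were less so, at 190 ± 38.8 in OE, 135 ± 15.7 in KO and 122 ± 34.6 in Ctrl. mt-Nd5 had an SD above its mean in Ctrl, where its median was 4766 scaled TPM and Ctrl 2 was highest at 30852.

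Of 9 nuclear complex III subunits 4 lay above 0 in OE against Ctrl and 2 in KO against Ctrl, of 10 complex IV subunits 6 and 3, and of 17 complex V subunits measured of 18 listed 12 and 7. Their medians lay between -0.15 and 0.07 in these comparisons, where the 13 members had medians of -0.73 and -0.96. Without Ctrl 2 the medians of complexes I, III, IV and V were 0.21, 0.15, 0.24 and 0.31 in OE against Ctrl, where that of the members was 0.14. They were 0.01, 0.08, 0.22 and 0.10 in KO against Ctrl, where that of the members was -0.08. In OE against KO 7 of 9, 6 of 10 and 10 of 17 were above 0, with medians of 0.15, 0.16 and 0.11. Cox5a, a complex IV subunit, averaged 854 ± 197 scaled TPM in OE, 1089 ± 352 in KO and 766 ± 134 in Ctrl. Atp5b, the catalytic beta subunit of the ATP synthase, averaged 1145 ± 204 in OE, 937 ± 102 in KO and 1139 ± 247 in Ctrl.

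Genes that transcribe, copy and process mitochondrial DNA and RNA were read in the same way. Of 9 transcription genes measured of 10 listed, 5 had an estimate above 0 in OE against Ctrl, 6 in KO against Ctrl and 5 in OE against KO, with medians of 0.11, 0.05 and 0.04. Tfam, which packages mitochondrial DNA and activates its promoters, averaged 38.1 ± 7.51 scaled TPM in OE, 28.9 ± 2.86 in KO and 32.6 ± 19.8 in Ctrl, differences within the spread of Ctrl. Of 11 replication genes 8, 6 and 10 lay above 0 in the same 3 comparisons, with medians of 0.11, 0.04 and 0.25, and 1 had an unadjusted p under 0.05 in OE against Ctrl. Without Ctrl 2 the medians in OE against Ctrl and KO against Ctrl were -0.02 and -0.14 for transcription genes and 0.07 and -0.17 for replication genes. Polg, the catalytic subunit of the mitochondrial DNA polymerase, averaged 39.4 ± 11.7 scaled TPM in OE, 26.8 ± 12.9 in KO and 39.7 ± 10.6 in Ctrl.

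Of 23 RNA processing genes measured of 24 listed, 12 lay above 0 in OE against Ctrl, 17 in KO against Ctrl and 6 in OE against KO, with medians of 0.18, 0.34 and -0.20 against 0.02, 0.04 and -0.00057 over all genes. Without Ctrl 2 the median of the RNA processing genes was -0.08 in OE against Ctrl, with 7 of 23 above 0, and 0.05 in KO against Ctrl, with 12 above 0. Lrpprc, which with Slirp stabilises mitochondrial mRNAs, averaged 41.4 ± 8.78 scaled TPM in OE, 55.6 ± 13.8 in KO and 42.3 ± 27.1 in Ctrl. Slirp averaged 38.1 ± 13.2 in OE, 28.4 ± 7.96 in KO and 28.0 ± 5.35 in Ctrl. Lrpprc and Slirp did not order the groups in the same way. Of 10 genes of the mitochondrial stress response measured of 12 listed, 8, 5 and 7 lay above 0, with medians of 0.25, 0.05 and 0.26. Without Ctrl 2 the medians of the stress response genes were 0.16 in OE against Ctrl and 0.0016 in KO against Ctrl. Hspd1, the matrix chaperonin, averaged 131 ± 25.7 scaled TPM in OE, 117 ± 23.6 in KO and 116 ± 65.9 in Ctrl.

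The nuclear genes most like the members over the 10 libraries were taken by Pearson's r of log2(deposited TPM + 1), among 3365 genes with a mean deposited TPM of at least 20. Closest to mt-Atp8 were Chpt1 (r = 0.66), a choline phosphotransferase, Slc25a36 (0.63), a mitochondrial carrier of pyrimidine nucleotides, Ephx2 (0.61), an epoxide hydrolase, Lpgat1 (0.59), a lysophospholipid acyltransferase, and Nfe2l2 (0.59), a transcription factor of the antioxidant response. Closest to the sum of the other 12 members were Rhoc (0.83), a small GTPase, Crip1 (0.82), a LIM protein, Ces2c (0.80), a carboxylesterase, Phyh (0.78), a peroxisomal hydroxylase, and Ggt1 (0.75), a gamma-glutamyltransferase. These are the highest of many values over 10 libraries that share totals, and are a description.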

How the data were processed

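Total RNA of ileal crypts was sequenced single-end, per the labels' protocols. The authors deposited TPM for 28987 Ensembl gene IDs in each of 10 libraries, per the file headers in 9 of them; the header of Ctrl 1 gives no unit, which was taken from its values. The submitters' processing notes name TopHat, Cufflinks and mm10. The annotation, and how shared reads were counted, were not given in the sources used here.

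Symbols, coordinates and lengths came from GENCODE M21 by ID (27458 IDs matched), and nuclear copies from blastn 2.17.0. Genes at 1 TPM or more in at least 2 libraries (13056) entered limma 3.58.1 (R 4.3.3), with an intensity trend and 3 group means, on log2(scaled TPM + 1), which understates the change of low genes. P-values were adjusted by the Benjamini-Hochberg method across those genes and read at 0.05. Single values had exact two-sided permutation tests, and correlations had permutation tests with 100000 resamples (Python 3.11.15). The limma step was tested on simulated data with independent errors for each gene and no shift of a whole library. That test therefore does not cover the weight of a library such as Ctrl 2. Alternatives covered scaling, pseudocount, filter, samples, robust fitting, a replicate block, denominators and left-out libraries. All members were named, as were the 5 nearest nuclear genes by correlation. Genes given with group means from the other lists were picked among the up to 4 highest of a list by mean level. Not all of those were named, and the gene named was not always the highest. Members and lists were chosen with earlier results of these data known.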

Additional observations from a re-analysis of the deposited data

Results flagged for a closer look

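Among 21 members and quantities examined in the 5 OE libraries, 3 had a library far from the others, by a rule that flags about 1 in 20 by chance. The library was OE 1 each time. The 3 members also vary together, with a Pearson's r between 0.73 and 0.94 over the 10 libraries. A share over all genes is not given, so the count of flags is a description and not an excess over chance. mt-Atp6 was at 50470 deposited TPM in OE 1 and 29724 to 32727 in the other OE libraries. mt-Co3 was at 18496 TPM in OE 1 and 9731 to 12210 in the others. mt-Cytb was at 6152 TPM in OE 1 and 3894 to 4539 in the others. In OE 1 the Stat5a and Stat5b levels also lay inside the Ctrl range, and its part in these values was not tested.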

How the results depend on the processing

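No member was called under any alternative run. The count of genes called, 0 in each comparison, was 5 for KO against Ctrl and 7 for OE against KO with no filter, and 1 each for OE against Ctrl and KO against Ctrl in fits of the groups compared. It was 1 each for OE against Ctrl and OE against KO without Ctrl 3, OE 3 and OE 4. With 1 library left out it ranged from 0 to 2 for KO against Ctrl and for OE against KO. Deviations from the group means correlated between -0.18 and 0.06 for same-numbered libraries and between -0.22 and 0.23 for other pairs. Values with KO 1 and KO 2 are equal with opposite sign by construction, so this cannot show whether replicate numbers pair the libraries. The replicate block gave 3 genes for OE against Ctrl and 0 in the other comparisons. The mt-Atp6 log2 difference of OE against KO was -0.0014 on deposited TPM, -0.011 relative to the TPM of all other genes, 0.44 with the replicate block and 0.21 without Ctrl 3, OE 3 and OE 4 (0.02 with all libraries), and ranged from -0.23 to 0.11 with 1 library left out.

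With 1 library left out, log2 differences of OE against Ctrl ranged from -1.54 to 0.29 for mt-Atp8, -0.92 to 0.12 for mt-Co2, -1.06 to 0.14 for mt-Atp6 and -1.20 to 0.18 for mt-Nd6. Those of KO against Ctrl ranged from -1.35 to 0.48 for mt-Atp8 and -1.08 to 0.13 for mt-Atp6. Those of OE against KO ranged from -0.66 to 0.29 for mt-Atp8, -0.17 to 0.65 for mt-Co2, -0.0101 to 0.25 for mt-Nd5 and -0.11 to 1.03 for mt-Nd4l. The mt-Atp8 share difference ranged from -14.95 to 2.82 percentage points for OE against Ctrl, -11.8 to 6.28 for KO against Ctrl and -11.04 to 4.11 for OE against KO. The mt-Atp8 to mt-Atp6 log2 ratio difference ranged from -0.48 to 0.14, -0.52 to 0.56 and -0.75 to 0.33 in the same 3 comparisons, and was -0.98, -0.27 and -0.71 in them without Ctrl 3, OE 3 and OE 4, where the share differed by -22.1, -11.5 and -10.6 percentage points. The causes were not tested. A planned ratio of the mitochondrial rRNA genes was not run, since the deposited values hold only the 13 protein-coding members. Depth cannot be judged from TPM, and the 2 KO libraries allow no exact p under 0.1 against Ctrl.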
